A study of Oryza sativa with 6 samples.

Results

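S-type lateral roots were compared with nodal roots of rice plants grown without salt, 1 RNA library against 1 library, across all loci with at least 50 scaled reads in either of them. Scaled reads are whole reads per locus divided by a library factor, so that libraries of different depth can be set side by side. This minimum was met by 13453 of the 37938 loci listed, or 35.5%, and these loci held 96.6% of the reads of the nodal library and 97.6% of those of the S-type library. The plants were of the cultivar IR29, described by the submitters as sensitive to salinity, and both libraries came from control plants of a 7-day experiment in which the other plants received 50 mM NaCl. The whole series has 6 libraries, 1 for each of 3 root types with and without salt. The sources used here do not give the age of the plants or the number of plants behind a library.

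Nodal roots are the shoot-borne axes of the rice root system: they thicken, form lignified vascular tissue and carry water and minerals to the shoot. S-type laterals are short, thin branches with little further growth, and L-type laterals are longer branches that can branch again. Lateral roots of rice carry much of the absorbing surface, and silicon and manganese enter the plant through transporters in the outer and inner barrier cell layers of the root.

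The control nodal library held 4249872 reads and the control S-type library 4081780, and the 6 libraries ranged from 3839177 to 4249872. With 1 library a side, no replicate spread, test or p-value could be had. The intervals printed hold for counting error alone, and PCR copies without molecular identifiers do not stand for separate molecules. To be counted as higher or lower, a locus had to differ 2-fold or more on the log2(scaled reads + 1) scale with a 95% exact interval that excluded 1. The labelled tissue is root, and the 10 listed photosynthesis loci, used as markers of shoot tissue, were near 0 in both libraries, with 68.4 summed scaled reads in nodal and 39.3 in S-type roots and no locus reaching the minimum. In whole roots, fewer cells of a type and less RNA per cell cannot be told apart. Gene IDs come without names in the deposited files, so gene groups are lists of IDs written from general knowledge of rice, their members are not named singly, and single members of gene families are uncertain because reads may be shared between near-identical copies.

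Transcripts differed widely between the 2 root types. In S-type roots 3668 loci were higher, 27.3% of the 13453, and 2638 were lower, 19.6%, so that 46.9% were counted in either direction. The remaining 7147 loci all lay within 2-fold. The loci counted higher took 50.1% of the reads of the S-type library but 12.99% of those of the nodal library. The loci counted lower took 31.8% of the nodal reads and 7.204% of the S-type reads. Loci within 2-fold held 51.8% of the nodal and 40.3% of the S-type reads. Which direction had more loci depended on the scaling: 58.2% of the counted loci were higher with trimmed-mean (TMM) factors, 50.8% with median-of-ratios factors and 41.5% when libraries were scaled by their totals. The median log2 difference of the 13453 loci was 0.16 with TMM factors and -0.21 with library totals, a shift of -0.37 between the scalings. Differences of gene groups are set beside the median of 0.16.

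**Figure D1:**
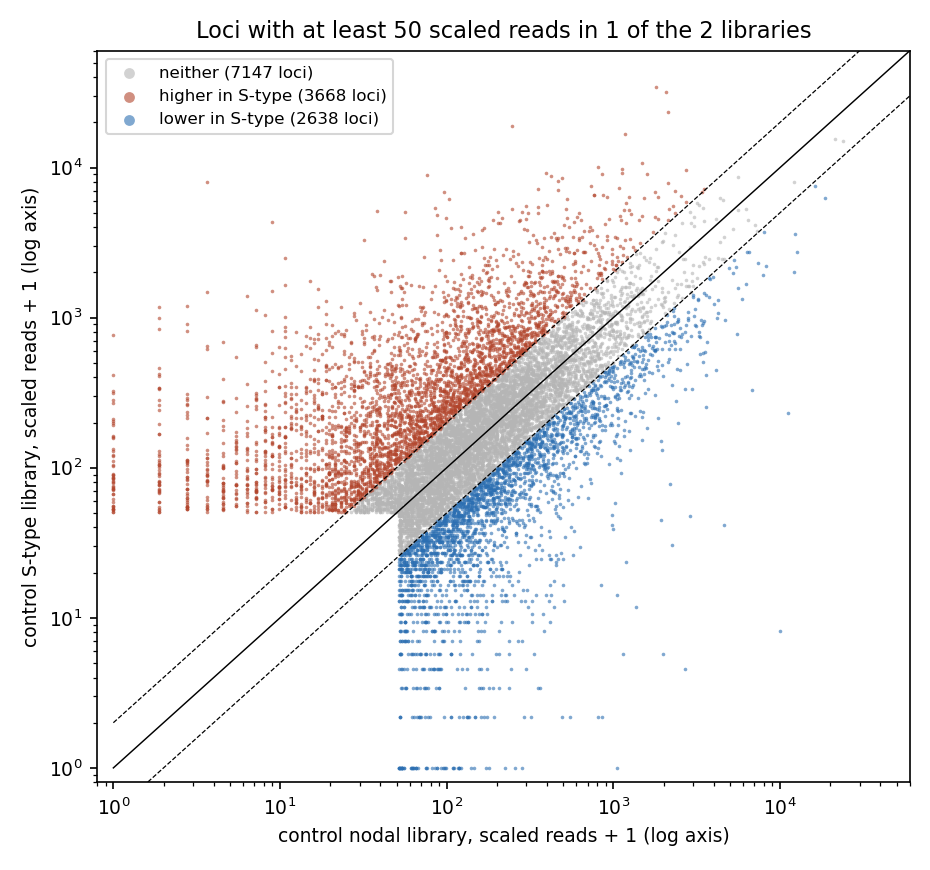
Scaled reads + 1 of the control nodal library (x axis, log) and of the control S-type library (y axis, log), 1 point per locus; the solid line marks equal values and the dashed lines a 2-fold difference. The 3668 loci counted higher in S-type roots reach further from the line and to higher levels than the 2638 counted lower.

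Large folds were more frequent on the S-type side. Among the loci counted higher, 513 differed at least 16-fold, of which 100 differed more than 64-fold. Among those counted lower, 210 differed at least 16-fold and 57 of them more than 64-fold. The split also changed with level among loci with a mean of 50 scaled reads or more over the 2 libraries. Among the 1337 loci with a mean under 50, 34.4% were higher and 37.2% lower. Their median log2 difference was -0.31. Such a locus reached the minimum in the library with more reads and lay below it in the other. A difference is thus built into this class by the minimum, and its shares cannot show a change with level. Among loci with a mean of 50 to 200 scaled reads 22.2% were higher and 19.3% lower, among those from 200 to 1000 the shares were 30.4% and 14.6%, and among the 696 loci above 1000 they were 41.5% and 22.4%. Of the 100 loci with the most reads in the S-type library 80 were counted higher there and 2 lower. Of the 100 with the most reads in the nodal library 60 were counted lower in S-type roots and 2 higher, and 21 loci stood on both lists of 100. The minimum itself set no sharp edge: 469 loci lay between 45 and 50 scaled reads, with a median log2 difference of -0.25, and 469 lay between 50 and 55, with a median of 0.00.

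The locus with the largest fold upward was Os11g0428800 (chromosome 11, 13723176 to 13724624, in the coordinates of the deposited files, build IRGSP-1.0). It had 3 reads in the control nodal library, or 2.66 scaled reads, and 7954 scaled reads in the S-type library, a ratio of 2987 (95% interval 1022 to 14486), with 83.8 in control L-type roots. The largest gain in scaled reads was at Os01g0975300 (chromosome 1, 43096255 to 43098049), with 1791 in the control nodal, 34620 in the control S-type and 4412 in the control L-type library, a ratio of 19.3 (18.5 to 20.2). That locus alone held 0.712% of the reads of the S-type library. Salt nodal roots had 16593 scaled reads there and salt S-type roots 68754.

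The largest fold downward was at Os03g0103200 (chromosome 3, 208339 to 211818). The control libraries had 9994 scaled reads from nodal, 7.15 from S-type and 1604 from L-type roots, so that S-type roots lay 1398-fold below nodal roots (95% interval 642.1 to 3810). The largest loss in scaled reads was at Os11g0247300 (chromosome 11, 7960530 to 7963375), with 18603 (nodal), 6246 (S-type) and 4145 (L-type), 2.98-fold below nodal in S-type roots (2.89 to 3.07). This ID is also on the tubulin list below, where it has the most reads in nodal and in S-type roots. In the authors' deposited table, which tested 19007 loci between the control nodal and S-type libraries, 85 (0.447%) had a q of at most 0.05. All 85 had 0 reads in 1 of these libraries, and 79 of them were counted here in the same direction. That direction was fixed by the same reads, so its match is no separate support. The 4 loci named above were not among the 85, with q values from 0.157 to 0.999 in the authors' deposited table.

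Some loci had reads in only 1 of the 2 libraries compared. Among loci above the minimum, 49 had 0 reads in the nodal library, with up to 761.3 scaled reads in the S-type library, and 55 had 0 reads in the S-type library, with up to 1043 in the nodal library. Against a floor of 3 reads per library these were 18.8-fold to 285.9-fold higher, and 14.2-fold to 291.8-fold lower, in S-type roots. The floor is a convention, and counting error alone allows smaller folds. The salt libraries of the same root types behaved unequally. Of the 55 loci at 0 in control S-type roots, 44 were at 0 and 54 had at most 3 reads in salt S-type roots. In salt nodal roots, however, only 13 of the 55 had at least 50 scaled reads. Of the 49 loci at 0 in control nodal roots, 15 were at 0 and 30 had at most 3 reads in salt nodal roots. In salt S-type roots 38 of the 49 had at least 50 scaled reads. Control L-type roots had 0 reads at 8 of the 49 and 17 of the 55, and over 3 reads at 28 and 18.

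The 35 gene lists held 266 IDs, of which 257 are in the deposited table and 181 reached the minimum. Of these 181 loci, 64 were higher, 73 lower and 44 neither in S-type roots, and their median log2 difference was -0.48. The counts below are read against the 27.3% of all loci that were higher and the 19.6% that were lower. The lists were written with earlier results of these data known, and some loci reached the minimum through 1 library alone. These counts therefore describe the loci measured and support no statement beyond them.

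Transcription factors of defence and stress were far higher in S-type roots. WRKY proteins are plant transcription factors of the defence response, and all 9 listed loci that reached the minimum, of 10, were counted higher. Their scaled reads summed to 1432 in nodal and 25172 in S-type roots, a ratio of 17.6 (16.7 to 18.5), with 4509 in L-type roots. The most read member had 423.5 scaled reads in nodal and 8820 in S-type roots. The member with the largest fold had 31.1 and 3305, a ratio of 106.4 (76.3 to 153.0). The median log2 difference was 4.38, with a range from 2.34 to 6.69, so that the member that differed least still lay 5.08-fold higher. The tenth ID stayed below the minimum, with 30.2 scaled reads in nodal and 13.1 in S-type roots.

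The stress list holds NAC, DREB and bZIP factors, which act in the responses to drought, cold, salt and abscisic acid (ABA). All 8 measured loci of 10 listed were higher, with 804.3 (nodal), 11899 (S-type) and 3376 (L-type) summed scaled reads. The ratio of the sums was 14.8 (13.8 to 15.8) and the median log2 difference 3.44. One member had 104.8 scaled reads in nodal and 3966 in S-type roots, another 162.5 and 3863, and one more 60.4 and 1656. The smallest difference in the list was 108.3 against 227.6. With library totals in place of TMM, 6 of the 8 were counted higher. Both lists stood at high levels in S-type roots without any salt treatment.

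Many jasmonate loci were counted higher, 10 of 13 and 3 of 5 in the 2 lists. Jasmonate is a wound and defence hormone; JAZ proteins repress its response factors and are themselves transcribed as part of the response. Among 13 measured loci of the 14 listed JAZ repressors and response factors 10 were higher and 0 lower. Their sums were 3162 (nodal), 20401 (S-type) and 8841 (L-type) scaled reads, a ratio of 6.45 (6.22 to 6.69) between S-type and nodal roots. The most read member had 506.9 scaled reads in nodal and 4152 in S-type roots, and another had 108.3 and 2433. The 3 that were not counted had 758.2 against 1023, 152.7 against 172.8 and 55.04 against 70.3. For jasmonate synthesis, 3 of 5 measured loci were higher and 2 of 5 with any of the other scalings. One of them had 1 read in the nodal library and 419.4 scaled reads in S-type roots, a ratio of 472.4 (84.2 to 18711). The remaining pair were within 2-fold, with log2 differences of 0.90 and 0.98.

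The ABA lists moved the same way on few loci. ABA is the hormone of water deficit; clade A protein phosphatases 2C restrain its signal and are transcribed in response to it. Of 5 measured phosphatase loci, out of 9 listed, 4 were higher, with sums of 328.5 scaled reads in nodal and 1268 in S-type roots (ratio 3.86, 3.43 to 4.36). One of them had 30.2 scaled reads in nodal and 353.9 in S-type roots. Only 2 of the 8 ABA synthesis and breakdown loci reached the minimum, and both were higher, with 320.5 against 1620 and 26.6 against 327.6 scaled reads. Synthesis and breakdown act on ABA in opposite ways, so these counts give no direction for its amount.

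Most listed tubulin, expansin and cellulose synthase loci were lower in S-type roots. Tubulins form the microtubules that guide wall deposition and cell division. Of the 11 listed loci 10 were lower, and the eleventh had 1595 scaled reads in nodal and 798.3 in S-type roots and was counted lower under the other scalings. Summed scaled reads were 50021 (nodal), 12485 (S-type) and 9719 (L-type), and S-type roots lay 4.01-fold below nodal roots (3.92 to 4.09). The 10 were from 2.57-fold to 9.85-fold lower, and the one with the largest fold had 1491 against 151.3 scaled reads. Expansins loosen walls in growing cells, and all 8 measured of 10 listed were lower, with a median log2 difference of -2.42 and sums of 3396 against 697.0 scaled reads. One of them, which is also on the root hair list, had 54.2 scaled reads in nodal roots against 0 in S-type roots, hence at least 15.2-fold lower.

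Cellulose synthases were listed separately for the secondary wall of xylem and fibres and for the primary wall. The 3 secondary wall loci had 978.3, 1935 and 1194 scaled reads in nodal roots, against 47.7, 44.1 and 22.6 in S-type roots. Their sum was 35.9-fold lower (29.3 to 44.4), and in L-type roots it was 198.4 against 4108 in nodal and 114.4 in S-type roots. Of the 6 primary wall loci 5 were lower, with sums of 15754 in nodal and 5155 in S-type roots, 3.06-fold lower (2.96 to 3.16). The sixth had 1099 in nodal and 812.6 in S-type roots. No primary wall locus differed as much as any secondary wall locus: the range was -2.57 to -0.44 on the log2 scale, against -5.66 to -4.33.

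Genes for phenolic compounds did not follow the secondary wall. Phenylalanine ammonia-lyase opens the pathway to lignin and many defence phenolics. Of 4 measured loci, out of 7 listed, 3 were higher, one of them with 340.0 scaled reads in nodal and 3267 in S-type roots. With TMM factors the summed reads of the list were nonetheless equal within counting error, 23178 and 23241 (ratio 1.003, 0.98 to 1.02). Scaling by library totals shifts this ratio by -0.37 on the log2 scale, outside that interval, so the equality depends on the scaling. A single locus held 92.5% of the summed reads of the list in nodal roots and 66.2% in S-type roots. That locus had 21446 scaled reads in nodal and 15385 in S-type roots and was not counted. Of the 6 later lignin pathway loci 3 were higher and 0 lower. One of those higher had 114.5 against 1343 scaled reads. The member with the most reads in nodal roots had 3019 there and 1620 in S-type roots, a log2 difference of -0.90. It was counted lower with library totals, with median-of-ratios factors and with the authors' factors.

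**Figure D2:**
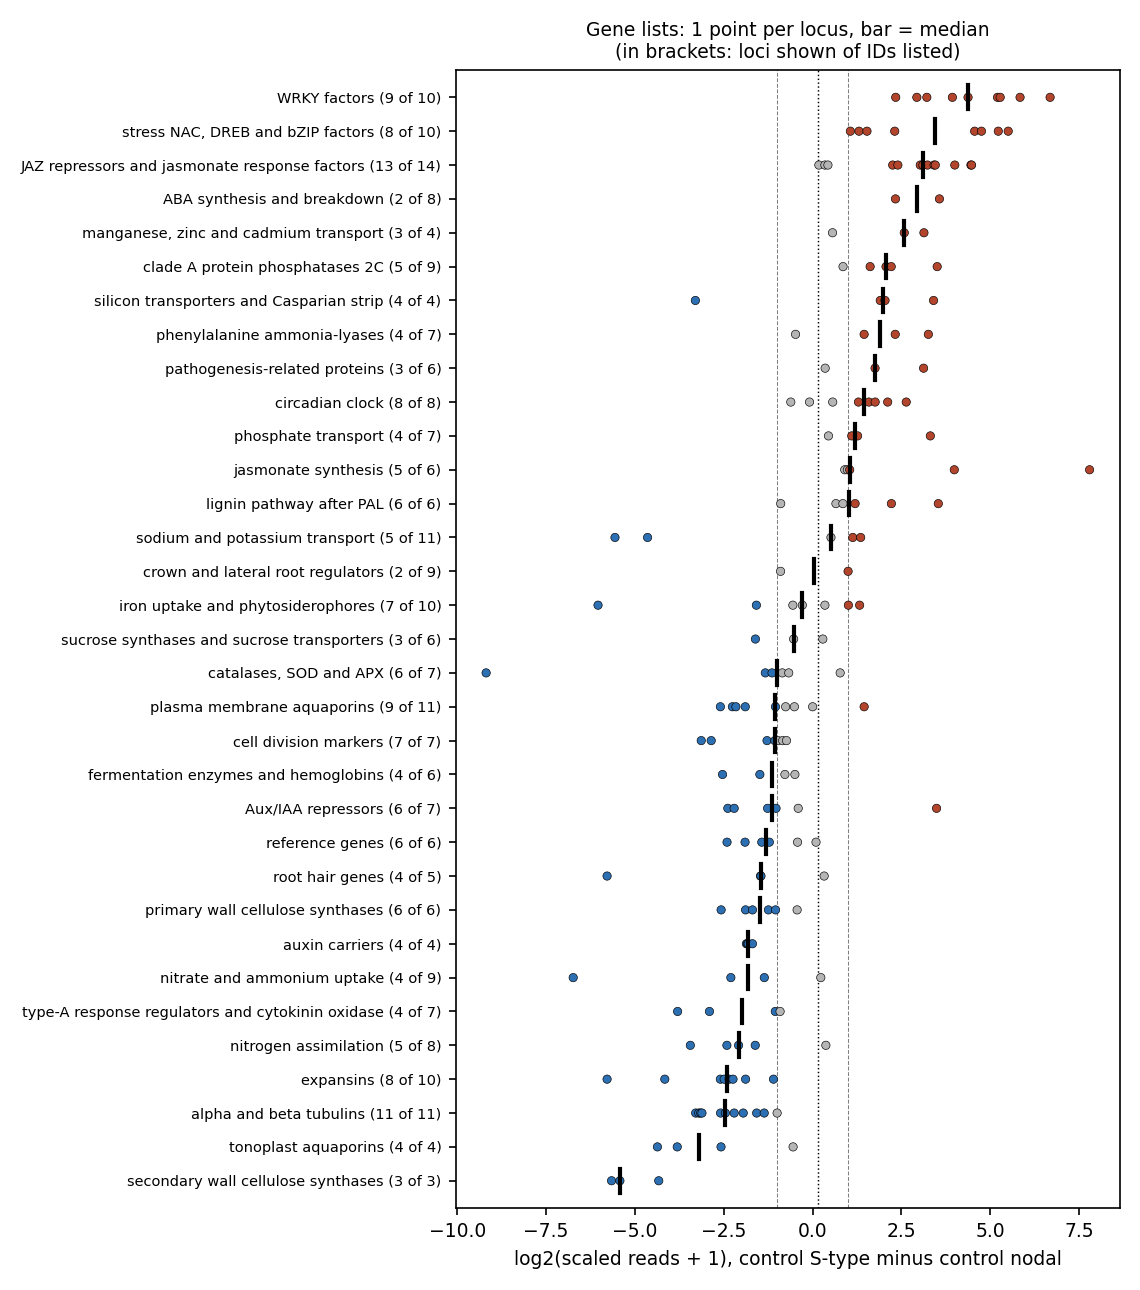
Difference of log2(scaled reads + 1) between the control S-type and control nodal libraries for the loci of 33 gene lists, 1 point per locus at or above the minimum; black bars are list medians, the dotted line is the median of all 13453 loci (0.16) and the dashed lines mark 2-fold. Red points were counted higher, blue lower and grey neither; WRKY, stress and JAZ loci lie to the right, and tubulins, expansins, tonoplast aquaporins and secondary wall loci to the left.

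Of the dividing-cell markers 4 of 7 were lower, and of the auxin carriers 4 of 4. All 7 markers of dividing cells had log2 differences below 0, with sums of 1709 (nodal), 623.1 (S-type) and 1123 (L-type) scaled reads. The largest difference was 143.8 against 15.5 scaled reads. With library totals all 7 were counted lower. The 4 auxin carriers, which move the hormone between cells, were all lower by similar amounts: 700.5 against 199.0, 553.1 against 170.4, 240.6 against 66.7 and 184.7 against 50.0 scaled reads. Their folds lay between 3.25 and 3.69. Aux/IAA proteins repress the auxin response and are transcribed when auxin is sensed. Of 6 measured loci 4 were lower and 1 higher, the latter with 64.8 scaled reads in nodal and 738.7 in S-type roots, a ratio of 11.4 (8.93 to 14.7).

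Type-A response regulators are transcribed in response to cytokinin, and cytokinin oxidase breaks this hormone down. The list that joins them had 3 of 4 measured loci lower, out of 7 listed. One had 311.6 scaled reads in nodal and 21.4 in S-type roots, 14.5-fold lower (9.06 to 24.8). Regulators of crown and lateral root formation were barely read: 2 of 9 listed reached the minimum, with 352.4 against 188.2 and 31.1 against 63.2 scaled reads. The latter was counted higher with these TMM factors and with no other scaling. Of the root hair list, 3 of 4 measured loci were lower, and the remaining one had 164.2 against 206.1 scaled reads.

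Water channels of the vacuolar membrane and of the plasma membrane were listed separately. The 4 tonoplast aquaporins had 22848 summed scaled reads in nodal and 2907 in S-type roots, 7.86-fold lower (7.54 to 8.20), and 3 of them were counted lower. They had 12068 against 2021, 6760 against 326.5 and 3572 against 253.8 scaled reads, and the fourth had 448.3 against 306.2. Plasma membrane aquaporins were mixed. Of 9 measured loci 5 were lower and 1 was higher, with sums of 22732 and 9355. The one that was higher had 822.1 (nodal), 2251 (S-type) and 2083 (L-type) scaled reads, while the most read one had 6246 (nodal), 1679 (S-type) and 2529 (L-type). Another was equal in both with TMM factors, with 1073 and 1075.

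Mineral transport differed by element. The list for silicon and the Casparian strip had 3 of 4 loci higher. Silicon influx and efflux carriers sit in the barrier layers of the root, where the Casparian strip seals the wall between cells. The 2 most read members had 851.4 scaled reads in nodal against 9031 in S-type roots, a ratio of 10.6 (9.92 to 11.4), and 2119 against 7942, a ratio of 3.75 (3.58 to 3.93). In L-type roots these had 1340 and 1482, far below S-type roots. The ID listed for the Casparian strip had 156.2 against 645.8 scaled reads, and the fourth member was lower, with 560.2 against 56.0.

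Phosphate transport loci were higher in 3 of 4 measured, out of 7 listed, the largest difference being 265.4 against 2652 scaled reads; with library totals 1 was counted higher. Manganese, zinc and cadmium transport had 2 of 3 measured loci higher, with 93.2 against 826.9 and 38.2 against 233.5 scaled reads. L-type roots had 44.97 and 6.17 at these loci, below nodal roots. Nitrogen genes lay on the other side. Of 4 measured nitrate and ammonium uptake loci 3 were lower, one of them with 360.4 scaled reads in nodal and 2.38 in S-type roots, 151.3-fold lower (41.6 to 1253). Of 5 measured nitrogen assimilation loci 4 were lower, with sums of 10950 and 3877. The fifth, with 1125 against 1458, differed by less than 2-fold.

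Sodium and potassium transport and iron uptake were split. Of the former, 5 of 11 listed loci reached the minimum and 2 were higher and 2 lower. The 2 higher had 554.9 against 1420 and 491.8 against 1079 scaled reads, and neither was counted with library totals. The 2 lower had 322.3 against 11.9, a 27.0-fold difference (14.5 to 56.9), and 158.9 against 2.38, a 66.7-fold difference (18.2 to 554.9). Of 7 measured iron uptake and phytosiderophore loci 2 were higher and 2 lower, with nearly equal sums of 5660 and 5141 scaled reads; with library totals 0 were counted higher. One of the lower loci had 64.8 scaled reads in nodal roots and 0 in S-type roots.

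Among antioxidant enzymes, 1 catalase ID stood apart. It had 2672 scaled reads in nodal and 3.57 in S-type roots, 747.6-fold lower (255.6 to 3627), while another had 3260 and 5587. In L-type roots these had 39.7 and 3509. Of the 6 measured catalase, superoxide dismutase and ascorbate peroxidase loci 3 were lower and 0 higher. Fermentation enzymes and hemoglobins had 2 of 4 loci lower, the largest difference being 301.8 against 51.2 scaled reads. Of 3 measured sucrose synthase and transporter loci 1 was lower, and the most read one had 6451 and 4457 scaled reads.

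Circadian clock genes, which time daily rhythms, had 5 of 8 loci higher and 0 lower. The most read had 2341 (nodal), 7025 (S-type) and 5135 (L-type) scaled reads, and another had 1020, 3462 and 1796. The 3 that were not counted had 886.0 against 579.0, 99.4 against 147.7 and 110.1 against 103.7 scaled reads. Pathogenesis-related proteins had 2 of 3 measured loci higher, one with 331.1 against 1124 scaled reads. Of 10 diterpenoid loci that are listed, 0 reached the minimum, with 4.44 summed scaled reads in nodal and 5.96 in S-type roots.

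Genes often used to scale such data differed too. Of 6 reference loci 4 were lower, with a median log2 difference of -1.32, and the sums were 19937 (nodal), 7859 (S-type) and 6707 (L-type) scaled reads. The 4 had 8268 against 2213, 3648 against 686.3, 1475 against 633.9 and 1694 against 627.9 scaled reads. The other two had 4608 against 3436 and 245.0 against 262.1.

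**Figure D3:**
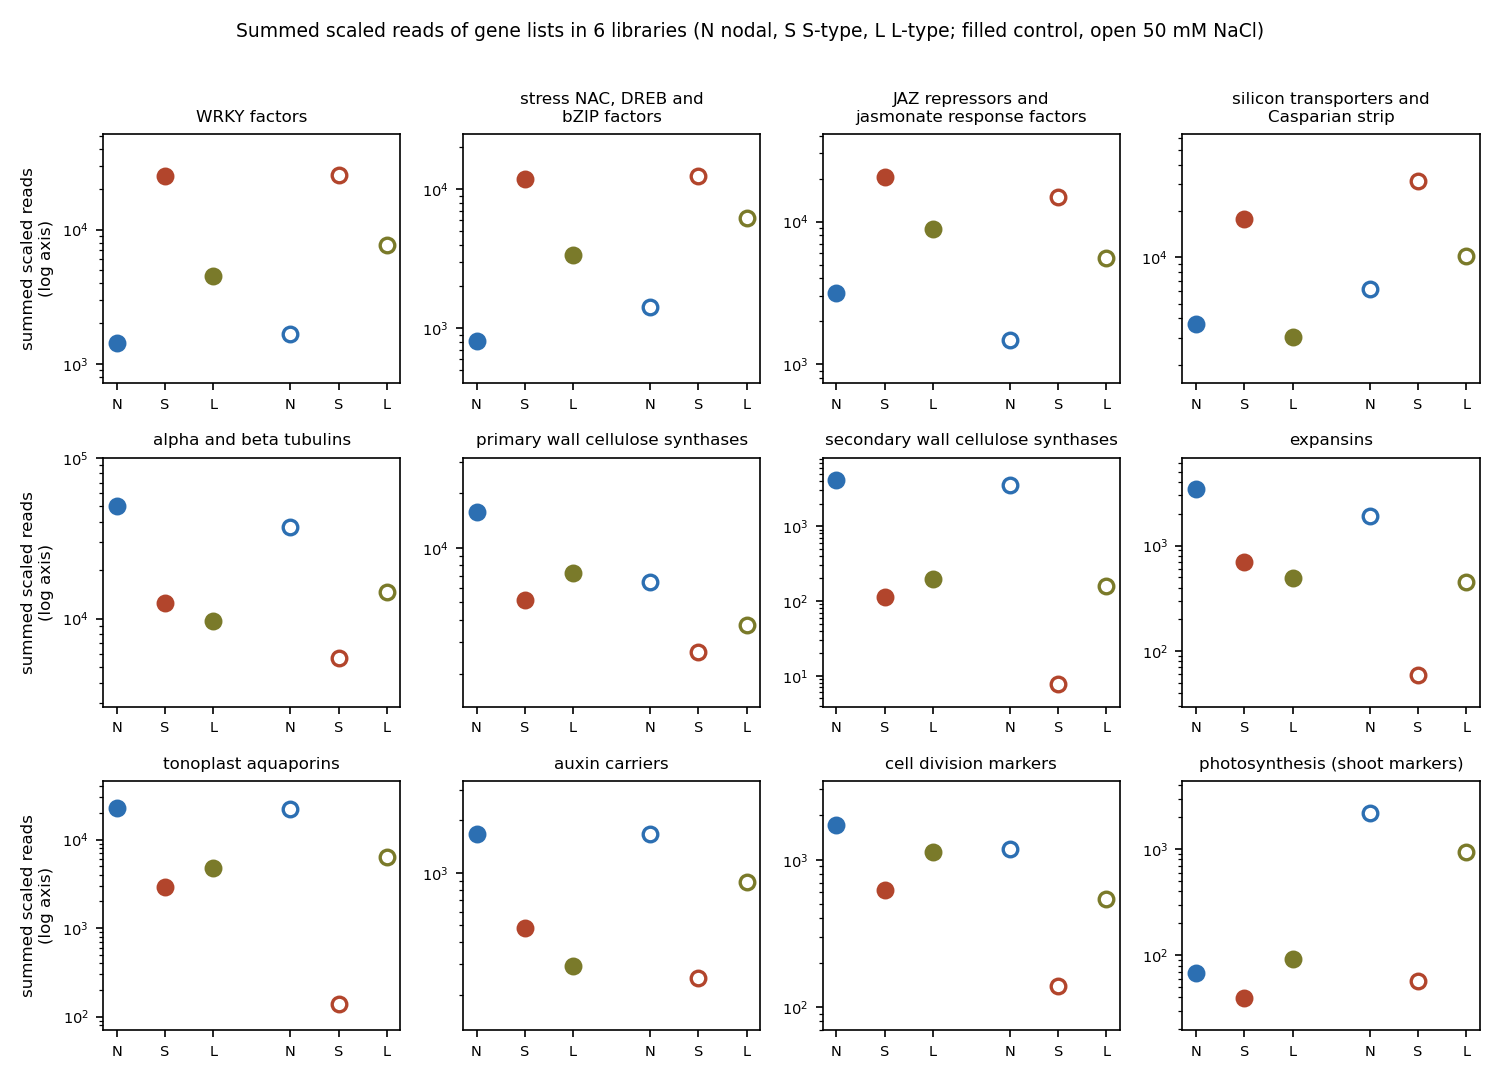
Summed scaled reads (y axes, log) of 12 gene lists in the nodal (N), S-type (S) and L-type (L) libraries, 1 library per point, filled for control and open for 50 mM NaCl. WRKY, stress and JAZ loci are lowest in the nodal and highest in the S-type library under both treatments, and tubulins, wall genes, expansins and aquaporins are highest in the nodal library; photosynthesis loci are high only in the salt nodal and salt L-type libraries.

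The salt-treated S-type and nodal libraries share no library with the control pair and give a second, single comparison of the root types. Of the 3668 loci higher in control S-type roots 2445 were also counted higher in the salt pair, which is 66.7% of the control list and 72.5% of the 3374 loci of the salt list; in the salt pair 24.8% of 13608 loci were higher and 22.8% lower, 47.6% in all. The photosynthesis loci, used as shoot markers, had 2193 summed scaled reads in the salt nodal library against 56.7 in the salt S-type library, with 6 of 10 counted lower; their part in the salt values was not tested. Of the 2638 lower loci 1557 were counted lower under salt too, 59.0% of the control list and 50.2% of the 3103 loci of the salt list. The share repeated rose with the fold among higher loci, from 53.1% at 2-fold to 4-fold and 77.7% at 4-fold to 16-fold to 80.6% at 16-fold to 64-fold and 91.0% above. Among lower loci it was 54.0%, 70.3%, 64.7% and 56.1% in the same classes. In the last 2 of these classes 100% and 96.5% still had the same sign. In all the shares repeated, a locus below the minimum in both salt libraries was taken as not repeated. A lower share is thus not by itself a loss of the difference.

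The median kept its sign in 30 of the 33 lists with a measured locus. The median log2 difference of the same WRKY loci was 4.11 in the salt pair, against 4.38 under control, and that of the JAZ loci 4.77 against 3.11. Tubulins had -4.40 against -2.46, auxin carriers -4.97 against -1.82, tonoplast aquaporins -7.89 against -3.19 and dividing-cell markers -3.14 against -1.06. Summed tonoplast aquaporin reads in S-type roots were 2907 under control and 140.5 under salt, while in nodal roots they were 22848 and 22090. The clock list had a median of 0.31 in the salt pair and 1.44 under control.

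Reversals were nearly all in 1 direction. There were 130 loci counted higher under control and lower under salt (3.54% of the 3668), and 10 the other way (0.379% of the 2638). The median scaled reads of the 130 were 49.3 (control nodal), 217.4 (control S-type), 258.1 (salt nodal) and 64.5 (salt S-type). In L-type roots the medians were 85.1 under control and 234.7 under salt. Salt nodal roots had more scaled reads than control nodal roots at 129 of the 130, and salt S-type roots had fewer than control S-type roots at 120. A locus could enter the 130 only through a rise in nodal or a fall in S-type roots. The counts therefore describe the 130 and are no separate result.

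**Figure D4:**
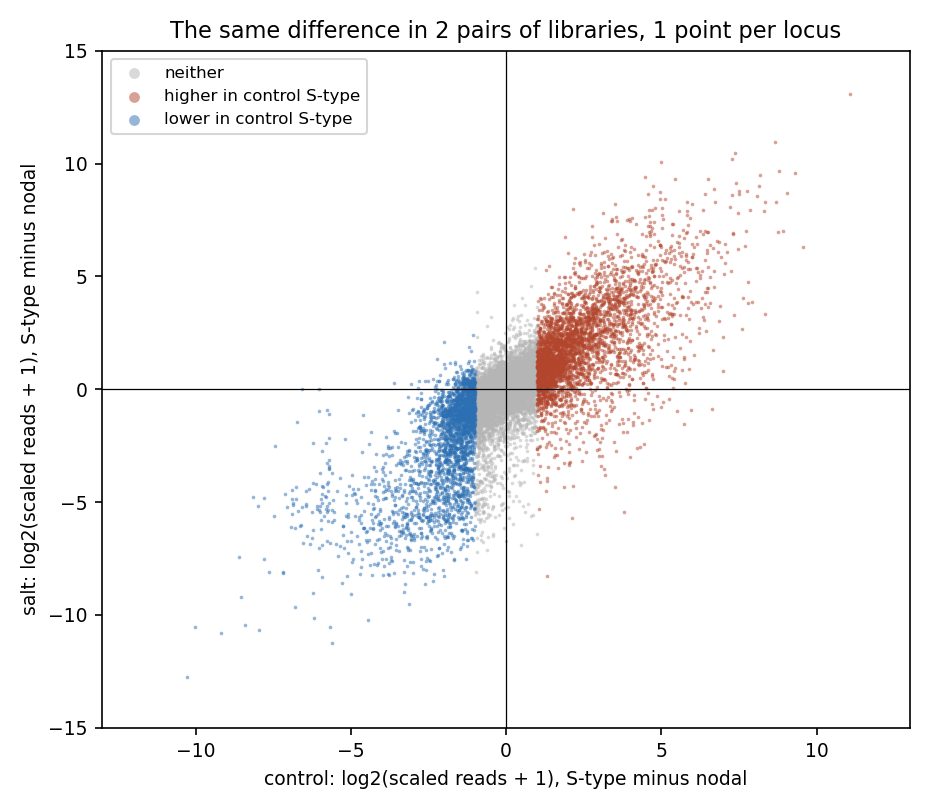
Difference of log2(scaled reads + 1) between S-type and nodal libraries under control (x axis) and under 50 mM NaCl (y axis) for the 13453 loci, coloured by the control count. Most red points lie above 0 and most blue points below 0 on the salt axis; the 130 reversals are among the red points below 0.

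The control L-type library lay between the S-type and nodal libraries at most of these loci. Of the 3668 loci higher in S-type roots, L-type roots were between the 2 levels at 2517 (68.6%), at or below the nodal level at 801 (21.8%) and at or above the S-type level at 350 (9.54%). Of the 2638 lower loci they were between at 1671 (63.3%), at or below the S-type level at 712 (27.0%) and at or above the nodal level at 255 (9.67%). At higher loci the intermediate ones were spread evenly, 1265 nearer to the S-type level and 1252 nearer to the nodal level on the log scale. At lower loci 924 were nearer to the S-type level and 747 nearer to the nodal level. Above 64-fold, L-type roots were between at 90 of 100 higher and 42 of 57 lower loci. These loci were picked because S-type and nodal roots differed, and a wider gap leaves more room for any other library between. The shares therefore cannot show that L-type roots are an intermediate type.

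**Figure D5:**
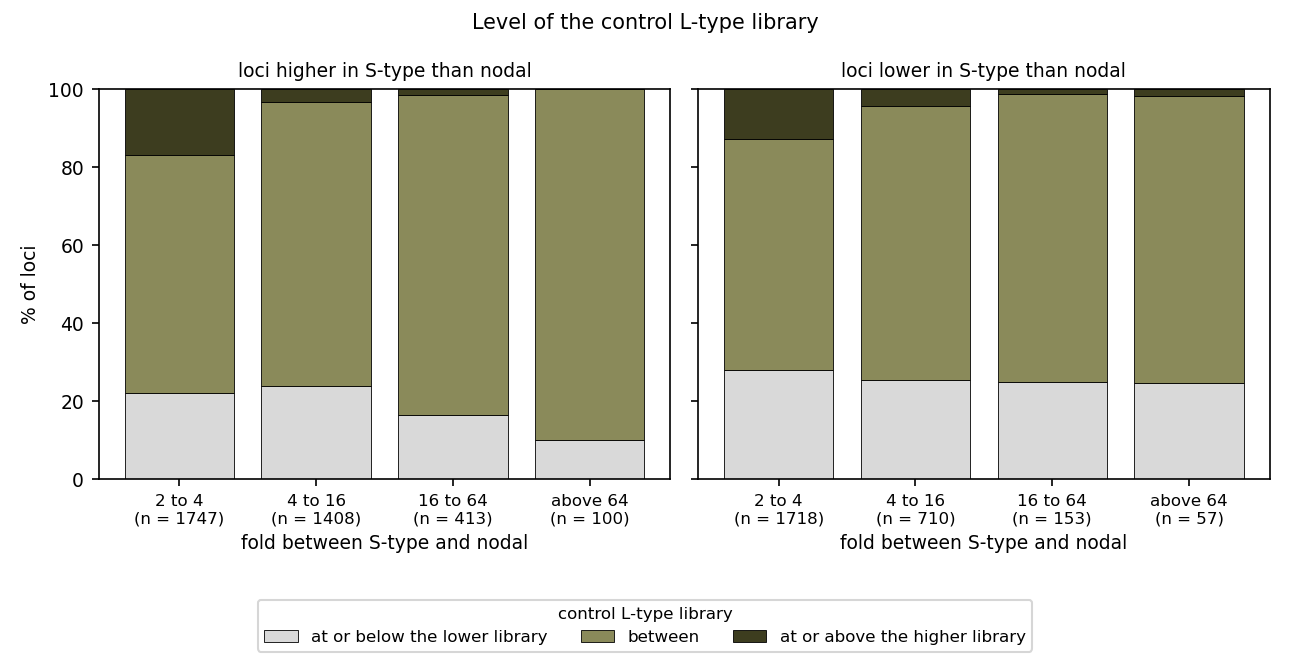
Share of loci (y axis, %) at which the control L-type library lay at or below the lower, between, or at or above the higher of the S-type and nodal libraries, by the fold between those (x axis), for loci higher (left) and lower (right) in S-type roots. The share between grows from 60.9% to 90.0% for higher loci and lies between 59.2% and 73.9% for lower loci. A wider fold leaves more room between the libraries, so a rise with fold is partly built in.

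Both directions were spread over all 12 chromosomes. The share counted higher ranged from 20.5% on chromosome 12 to 30.8% on chromosome 10, and the share counted lower from 16.4% on chromosome 8 to 21.7% on chromosome 11. Chromosome 12 had the only negative median log2 difference, -0.08. Neighbouring loci were somewhat more alike than the background: the next measured locus was also higher after 32.5% of higher loci, against 27.3% over all, and also lower after 23.8% of lower loci, against 19.6%. There were 102 runs of 4 or more neighbouring measured loci that were all higher and 33 that were all lower. Loci below the minimum were skipped, and the number of runs to be had without any grouping was not tested.

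By number of measured loci, 2 upward runs tied at 8, both on chromosome 1 (4566303 to 4718746 and 33618549 to 33747993). With the skipped loci included, their spans hold 15 and 24 listed loci. The one with more scaled reads was the run from 4566303, of 152.4 kb. Its control sums were 1646 (nodal), 9644 (S-type) and 2928 (L-type) scaled reads, and its salt sums, in that order, were 1513, 13132 and 3794. Its loci differed by 1.05 to 8.31 on the log2 scale. The downward run with the most measured loci held 6, of 9 listed in its span, on chromosome 7 (24470109 to 24508630, 38.5 kb). Its control sums were 781.2 (nodal), 157.3 (S-type) and 158.7 (L-type) scaled reads. Its loci differed by -3.05 to -1.61. Of the 13453 loci, 122 had no gene ID, and 67 of these were higher and 23 lower.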

How the data were processed

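Strand-specific mRNA libraries of rice roots were processed on build IRGSP-1.0 with Cuffdiff 2.2.1, Cufflinks 2.2.1, TopHat2 2.0.11, Bowtie and Trimmomatic 0.32, per the submitters' processing notes. The authors deposited, per the file headers, a count signal for each locus, whose values rise in equal steps within a library, as reads divided by a size factor do, and a table of FPKM values with p-values and q-values for pairs of libraries. Whole reads were recovered from the steps between values, within 0.01 for 99.89% to 99.98% of values above 0, and scaled with TMM factors (edgeR 4.0.16, R 4.3.3) (19469 loci, each with 10 or more reads in 2 or more libraries) to a mean library of 3998627 reads. TMM factors were 1.06 (control nodal) and 0.825 (control S-type). No count test was run, because these 2 libraries alone leave no residual; a model over all 6 libraries was not fitted here. Intervals are exact conditional binomial (Clopper-Pearson, scipy 1.17.1, Python 3.11.15) at 95%, and the floor is 3 reads per library. Loci without an ID (828) held 0.368% of nodal and 0.460% of S-type reads and were kept. Of 36773 gene IDs, 325 stand on several loci and 1 matched the reference table (assembly ASM3414082v1), so no locus described has a name and no sequence is shown. The 18 deposited columns of count variances were not used. The calling step was tested on simulated data with few changed loci, balanced in direction, which does not test the choice of scaling. Alternatives were DESeq2 1.42.0 median-of-ratios factors, library totals, the authors' factors, FPKM, other minimums, 4-fold and another pseudocount. Gene lists and loci were chosen with earlier results of these data known. Without names, the rule took 2 IDs per direction: the largest fold (minimum 200 scaled reads on the higher side) and the largest difference in scaled reads; for runs it took the one with most loci per direction, ties by summed scaled reads.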

Additional observations from a re-analysis of the deposited data

Results flagged for a closer look

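In 3 lists the median difference between S-type and nodal roots had opposite signs in the control and the salt pair of libraries; each pair is 1 library against 1 library, and the difference between the pairs was not tested. Pathogenesis-related proteins (3 loci) had a median log2 difference of 1.76 under control and -2.59 under salt, and their summed scaled reads in S-type roots were 1247 under control and 116.0 under salt, against 385.3 and 462.0 in nodal roots. The list for silicon transporters and the Casparian strip (4 loci) had 1.97 and -0.37, although its sum in S-type roots was 17675 under control and 31493 under salt: the ID listed for the Casparian strip had 645.8 scaled reads in control and 32.2 in salt S-type roots, while the most read member had 9031 and 18120. Sodium and potassium transport (5 loci) had 0.52 and -0.19.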

How the results depend on the processing

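The direction with more loci turned only when libraries were scaled by their totals: 2720 higher and 3833 lower loci, 41.5% higher. The share was 51.4% when values were taken as the authors had scaled them, 50.8% with median-of-ratios factors, 53.6% with TMM over all listed loci (an alternative chosen after seeing the data) and 53.9% with FPKM at the same minimum of reads and a pseudocount of 1. Minimums moved the counts: 4178 lower loci at 10 scaled reads, 4418 with none, and 2268 higher and 1161 lower at 200. At 4-fold 1921 were higher and 920 lower. In the crown and lateral root list, of 2 loci, the median of 0.05 turned to -0.31 (library totals), -0.10 (median-of-ratios), -0.093 (authors' factors), -0.045 (TMM over all loci) and -0.019 (pseudocount 10); the cause was not tested. The medians of the other 32 lists and the differences of the 4 loci named kept their sign under each scaling and with a pseudocount of 10. No paired analysis was possible because each group has 1 library. For the same reason no library could be left out.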

Other observations

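In the table deposited by the authors (the authors' deposited table), 19007 loci were tested between the 2 control libraries, and 85 (0.447%) had a q of at most 0.05, 40 with higher FPKM in S-type and 45 in nodal roots; 1278 had an unadjusted p under 0.05. The 85 loci with a q of at most 0.05 all had 0 reads in 1 of the 2 libraries. Their level in the other library was low, with a median of 87.0 scaled reads and a range from 25.7 to 1043. Of the 723 loci that differed at least 16-fold, 79 were among them: 77 of the 505 with under 500 scaled reads in the higher library, 2 of the 160 from 500 to 2000 and 0 of the 58 above 2000. The locus with 3 reads against 6676 had a q of 0.999 in that table.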
